A study of Marchantia polymorpha and Lactuca sativa with 27 samples.

Results

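MpPTB2 (Mp4g16580), MpPTB3 (Mp4g16590), MpPTB8 (Mp4g19700) and MpPTB7 (Mp8g10380) are 4 genes of the PTB family in the liverwort Marchantia polymorpha. They are 4 of the 8 PTB genes in the name table, of 19355 genes counted and of 13016 genes that passed the filter on low counts. The genes were chosen from their measured levels in the same 6 groups of genotype and medium that are described here. Their levels and differences are therefore given as a description, with no test.

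PTB proteins are phosphate transporters related to the yeast protein Pho89, which carries phosphate into the cell together with sodium. The family is found in streptophyte algae and in bryophytes, while flowering plants take up phosphate mainly through proton-coupled PHT1 transporters. Plants short of phosphate commonly raise the transcripts of phosphate uptake carriers, of enzymes that free phosphate from organic compounds, and of enzymes that replace membrane phospholipids by lipids without phosphorus.

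RNA was sequenced from whole plants of the male wild-type strain Tak-1 and of a line labelled Mpwrky10, after a gene for a WRKY transcription factor. The sources used here give neither the kind of mutation in that line nor the number of independent lines. Gemmalings, which grow from the plant's asexual propagules, were transferred at an age of 7 days and then kept for 5 days in 1 of 3 media. Full medium held 2 mM phosphate and 10 mM nitrate, and the others were labelled as holding 0 mM phosphate or 0 mM nitrate. Each of the 6 groups of genotype and medium held 3 libraries.

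Libraries held 18165419 to 25544702 counts, and a single count corresponded to 0.0391 to 0.056 CPM, the unit of level used here, which is edgeR's counts-per-million value with library sizes scaled by TMM. On the first principal axis (42.9% of the variance), replicate 1 of the wild type labelled no nitrate had a coordinate of 21.3, with 47.4 and 42.9 for the other two. Mpwrky10 libraries labelled no phosphate spread from -4.57 to 23.2, and full-medium Mpwrky10 replicate 3 had -72.3, with -53.5 and -54.7 for the other two. MpWRKY10 (Mp7g06550) was not lower in the libraries labelled Mpwrky10. Its mean level was 18.7 against 19.5 CPM in full medium, 27.2 against 29.8 CPM in libraries labelled no phosphate and 35.7 against 23.5 CPM in those labelled no nitrate. MpRBCS, for the small subunit of Rubisco and the marker of green tissue, stood at 120 to 466 CPM in all libraries, and the summed level of the sperm-lineage genes MpPRM and MpDUO1 stayed between 0.393 and 1.65 CPM. The names of the media could not be checked against a measurement of phosphate or nitrate. Relatives of genes that phosphate shortage raises in flowering plants, MpSPX, MpGDPD and MpSQD, were higher under the label no nitrate than under no phosphate. The lists of symbols they come from were mixed in this comparison in the wild type. Of 2 phosphate signalling genes, 1 was called higher and 1 lower. Among 6 scavenging genes 1 was called higher and 2 lower, and among 9 lipid remodelling genes 2 higher and 1 lower. Over all genes, 17.5% were called higher and 14.6% lower. Of 17 ammonium transporter genes, 8 passed the filter on low counts. In the wild type 5 of the 8 were called lower under the label no nitrate than under no phosphate (14.6% of all genes). Whether this bears on the labels was not tested, and media are named as labelled throughout.

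MpPTB2 was read almost only in libraries labelled no nitrate. The 3 wild-type libraries in full medium held 0 counts, and those labelled no phosphate held 5, 2 and 0 counts. Wild-type libraries labelled no nitrate held 83, 52 and 71 counts, a level of 3.84, 2.91 and 3.79 CPM. In the line labelled Mpwrky10, full medium gave 0 counts in each of the 3 libraries, the label no phosphate 0, 2 and 0 counts, and the label no nitrate 19, 10 and 30 counts, or 1.03, 0.487 and 1.53 CPM. Every library labelled no nitrate stood above every other library of its genotype, and no Mpwrky10 library labelled no nitrate reached the lowest wild-type one.

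Summed over the 3 libraries of a group and scaled by their summed library sizes, and against a floor of 3 counts over the full-medium group, MpPTB2 was at least 76.4-fold higher in wild-type libraries labelled no nitrate. The matching bound was at least 21.4-fold higher in the line labelled Mpwrky10. Against the wild-type libraries labelled no phosphate, the ratio was 34.4 (95% exact counting interval 16.4 to 86.6). Under the label no nitrate, the wild-type level was 3.52 times the Mpwrky10 level (95% exact counting interval 2.62 to 4.79), a log2 difference of Mpwrky10 minus wild type of -1.79 (SE 0.467). These intervals cover counting error only. MpPTB2 passed the filter on low counts only through the groups where it was high.

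MpPTB3, at the locus number next to MpPTB2, had the same high groups. Wild-type libraries held 3, 5 and 0 counts in full medium, 8, 6 and 7 counts labelled no phosphate, and 133, 185 and 191 counts labelled no nitrate. The last of these correspond to 6.15, 10.4 and 10.2 CPM, with replicate 1 the lowest. Libraries labelled Mpwrky10 held 4, 1 and 4 counts in full medium, 15, 3 and 0 counts labelled no phosphate, and 33, 41 and 67 counts labelled no nitrate, or 1.78, 2.00 and 3.41 CPM. The ranges of the Mpwrky10 and wild-type libraries labelled no nitrate did not overlap, and both lay above all other libraries.

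The log2 difference of MpPTB3 between the label no nitrate and full medium was 6.11 (SE 0.648) in the wild type and 4.03 (SE 0.684) in the line labelled Mpwrky10. Between the label no phosphate and full medium it was 1.30 (SE 0.918) in the wild type and 1.04 (SE 0.922) in the line labelled Mpwrky10. The latter value rested on 1 library with 15 counts, and was -0.925 without that library, Mpwrky10 replicate 1. Mpwrky10 minus wild type was -1.89 (SE 0.443) under the label no nitrate, where the wild-type level was 3.64 times the Mpwrky10 level (95% exact counting interval 3.02 to 4.42). This gene, too, passed the filter through its high groups alone. MpPTB2 and MpPTB3 stand in a tandem row of related genes, and how reads that match several genes were assigned was not given, so the division of reads between them is uncertain.

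MpPTB8 was read at a far greater depth and had its highest values in the same libraries. In the wild type its level was 23.0, 32.6 and 39.8 CPM in full medium, 22.9, 22.3 and 19.6 CPM labelled no phosphate, and 261, 343 and 408 CPM labelled no nitrate. Libraries labelled Mpwrky10 gave 42.4, 39.2 and 32.6 CPM in full medium, 23.9, 16.8 and 19.3 CPM labelled no phosphate, and 188, 148 and 267 CPM labelled no nitrate. Within each genotype the libraries labelled no phosphate were the lowest and those labelled no nitrate the highest, with no overlap. Between genotypes the libraries labelled no nitrate did overlap, since Mpwrky10 replicate 3 at 267 CPM lay above wild-type replicate 1 at 261 CPM.

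In counts, MpPTB8 went from 2061 over the 3 full-medium wild-type libraries to 19389 over those labelled no nitrate. Its log2 difference from full medium was 3.41 (SE 0.257) in the wild type and 2.41 (SE 0.248) in the line labelled Mpwrky10. Under the label no phosphate it lay below full medium, by -0.56 (SE 0.259) in the wild type and -0.93 (SE 0.261) in the line labelled Mpwrky10. Mpwrky10 minus wild type was 0.26 (SE 0.251) in full medium, -0.11 (SE 0.267) labelled no phosphate and -0.74 (SE 0.23) labelled no nitrate. Taken without Mpwrky10 replicate 3 the last value was -1.0, and without replicate 2 it was -0.57.

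MpPTB7 had another order of groups, with its highest mean under the label no phosphate. Wild-type levels were 4.18, 5.50 and 6.83 CPM in full medium, 10.8, 12.2 and 11.8 CPM labelled no phosphate, and 7.86, 11.4 and 8.44 CPM labelled no nitrate. Levels in the line labelled Mpwrky10 were 6.09, 5.18 and 4.31 CPM in full medium, 9.43, 13.5 and 7.75 CPM labelled no phosphate, and 8.65, 5.45 and 5.75 CPM labelled no nitrate. All 3 libraries labelled no phosphate stood above all full-medium libraries in each genotype. The libraries labelled no nitrate stood above full medium in the wild type, and overlapped with it in the line labelled Mpwrky10.

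The log2 difference of MpPTB7 between the label no phosphate and full medium was 1.08 (SE 0.225) in the wild type and 0.99 (SE 0.228) in the line labelled Mpwrky10. For the label no nitrate it was 0.74 (SE 0.228) and 0.35 (SE 0.233). Differences of Mpwrky10 minus wild type were -0.09 (SE 0.235) in full medium, -0.18 (SE 0.216) labelled no phosphate and -0.48 (SE 0.226) labelled no nitrate, with overlapping libraries in all 3 media. In whole plants, fewer cells that hold a transcript and less of it per cell cannot be told apart, for this gene as for the others.

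**Figure D1:**
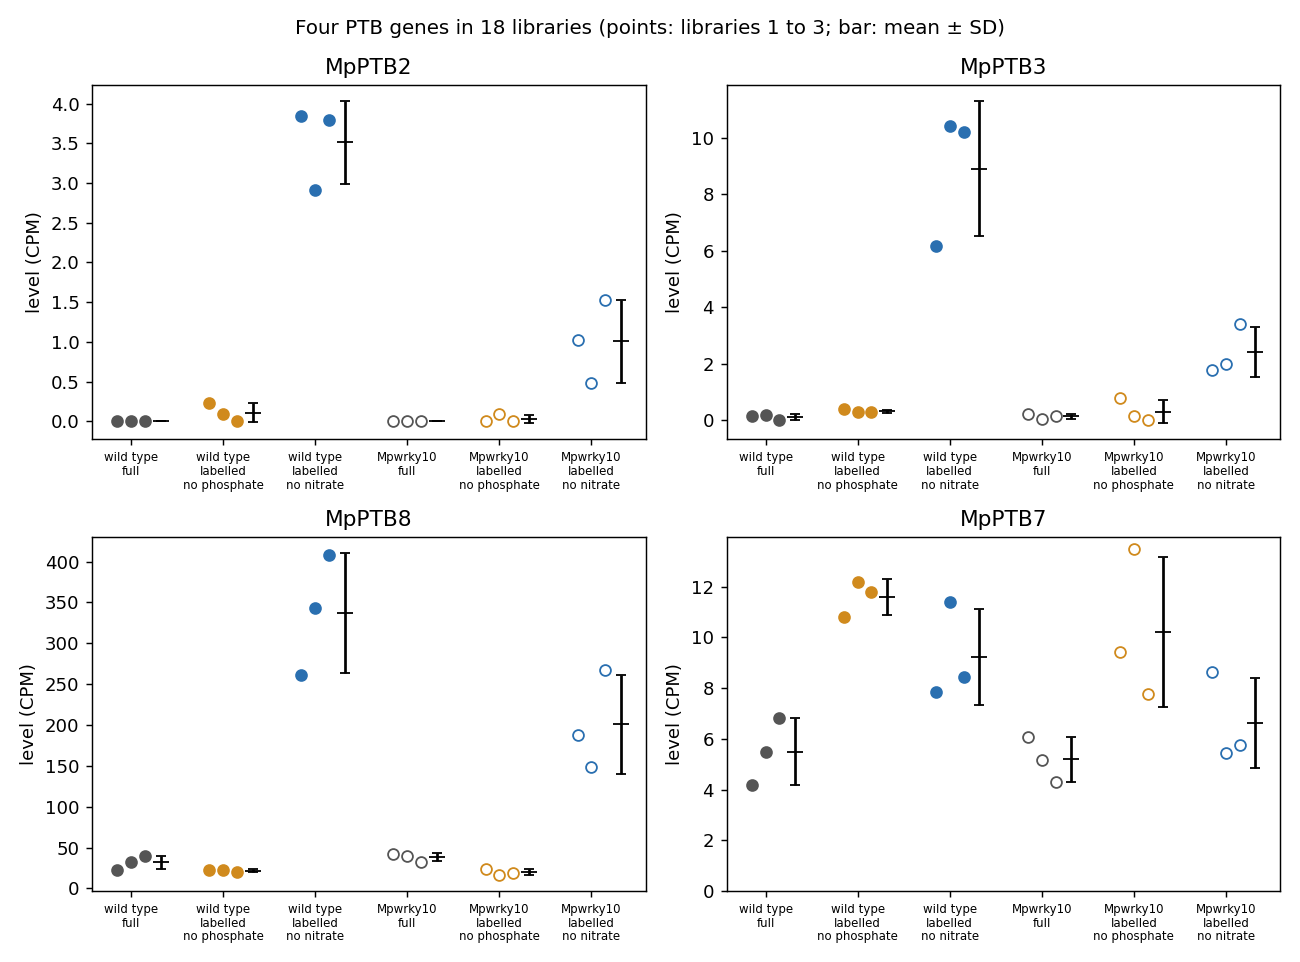
Level in CPM (vertical axis, from 0, a scale of its own in each panel) of the 4 genes in every library, by group on the horizontal axis. Points are libraries, filled for the wild type and open for the line labelled Mpwrky10, and the bar beside them is the mean ± SD of 3 libraries. MpPTB2, MpPTB3 and MpPTB8 are highest in libraries labelled no nitrate, with wild-type means of 3.51, 8.90 and 337 CPM, and MpPTB7 is highest in those labelled no phosphate, with a wild-type mean of 11.6 CPM.

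Ordered by mean level, the wild type labelled no nitrate came first and the line labelled Mpwrky10 with that label second for MpPTB2, MpPTB3 and MpPTB8. For MpPTB2 and MpPTB3 these first 2 groups were separated from each other and from the rest, while the other 4 overlapped with their neighbours in the order. For MpPTB8 the first 2 groups overlapped, full medium followed at 38.1 ± 5.02 CPM in the line labelled Mpwrky10 and 31.8 ± 8.44 CPM in wild-type libraries (mean ± SD, n = 3). The label no phosphate came last, at 21.6 ± 1.73 CPM for wild-type and 20 ± 3.6 CPM for Mpwrky10 libraries (mean ± SD, n = 3). Every group of MpPTB7 overlapped with the next, from 11.6 ± 0.701 CPM in the wild type labelled no phosphate to 5.19 ± 0.893 CPM in full-medium Mpwrky10 libraries (mean ± SD, n = 3).

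Genes were called at a Benjamini-Hochberg adjusted p under 0.05 in edgeR's quasi-likelihood test over all genes. Because the same values chose the 4 genes, their calls are set beside the share of all genes only as a description. In the wild type labelled no nitrate against full medium, 4 of 4 were called higher, where 20.6% of all genes were. Against the label no phosphate, 3 of 4 were called higher, with 17.5% of all genes. For the label no phosphate against full medium, MpPTB7 alone was called higher (26.3% of all genes).

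In the line labelled Mpwrky10, 3 of 4 were called higher under the label no nitrate than in full medium (23.2% of all genes). Against the label no phosphate, 3 were called higher (15.3%) and MpPTB7 lower (11.4%). For the label no phosphate against full medium, MpPTB7 was called higher (20.3%) and MpPTB8 lower (16.8%). Between genotypes under the label no nitrate, MpPTB2, MpPTB3 and MpPTB8 were called lower in the line labelled Mpwrky10, where 9.82% of all genes were.

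Libraries that do not overlap between groups of 3 were common among all genes. MpPTB2, MpPTB3, MpPTB8 and MpPTB7 had all wild-type libraries labelled no nitrate above full medium, like 26.7% of all genes, and MpPTB2, MpPTB3 and MpPTB8 had them above the label no phosphate (24.7%). In the line labelled Mpwrky10 the last 3 genes had both separations, with 27.5% and 21% of all genes. Libraries labelled no phosphate all lay above full medium for MpPTB3 and MpPTB7 in the wild type (31.6%) and for MpPTB7 in the line labelled Mpwrky10 (24.4%), and below it for MpPTB8 in both (29.1% and 20%). Of the 4 genes, MpPTB2 and MpPTB3 had every Mpwrky10 library labelled no nitrate below every wild-type one, with 18% of all genes.

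Some of these calls rested on single libraries. The call of MpPTB7 in the wild type labelled no nitrate ended without full-medium replicate 1 (log2 difference 0.58) or 2 (0.74), or without replicate 2 labelled no nitrate (0.54). The genotype call of MpPTB8 ended without wild-type full-medium replicate 2, wild-type replicate 1 or 2 labelled no phosphate, wild-type replicate 2 or 3 labelled no nitrate, or Mpwrky10 replicate 1 or 2 labelled no nitrate. Without the last of these the genotype call of MpPTB2 ended too, at -1.45. A lower genotype call of MpPTB7 arose without Mpwrky10 replicate 1 labelled no nitrate (-0.72). The lower call of MpPTB8 in Mpwrky10 libraries labelled no phosphate ended without their replicate 2 (-0.82), and in the wild type one arose without full-medium replicate 1 (-0.74). MpPTB2 was also called higher in the wild type labelled no phosphate without replicate 3 of that group, and by DESeq2. In Mpwrky10 libraries, the lower call of MpPTB7 under the label no nitrate than under no phosphate ended without replicate 1 or 2 labelled no phosphate, without replicate 2 or 3 labelled no nitrate, and without several libraries of other groups.

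**Figure D2:**
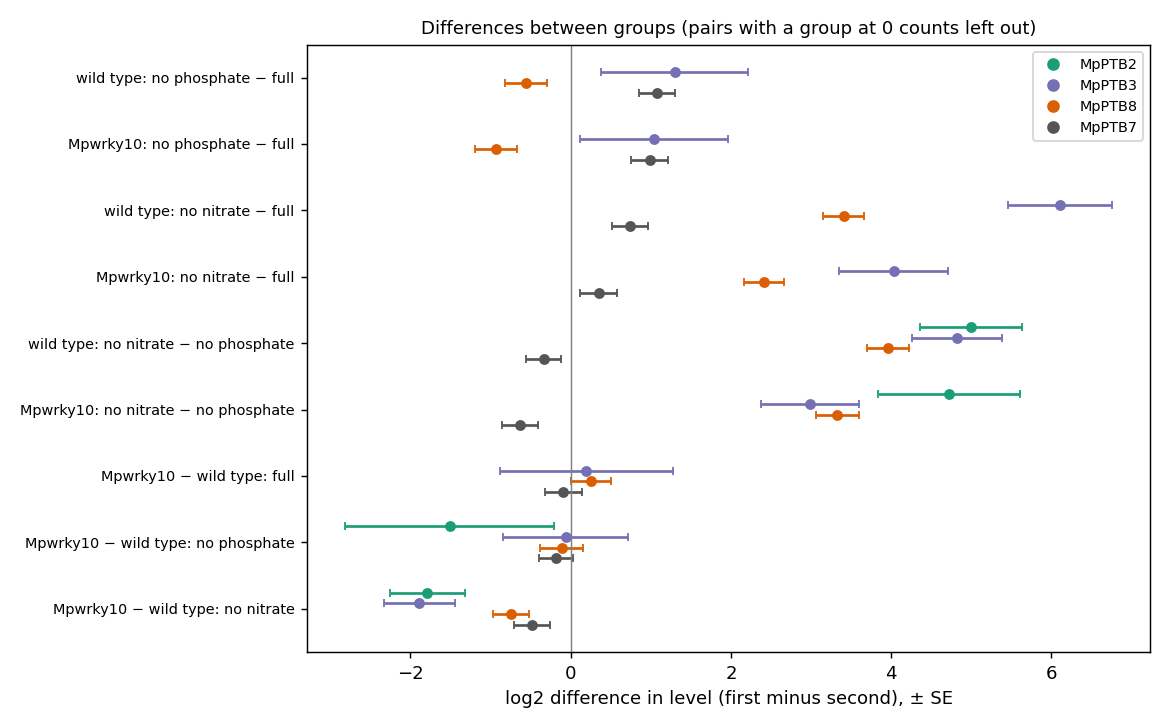
Log2 difference in level between pairs of groups (horizontal axis, first group minus second) for the 4 genes, with media named as labelled. Points are fitted differences and bars ± 1 SE, and pairs with a group at 0 counts are left out. MpPTB3 reaches 6.11 and MpPTB8 3.41 for no nitrate minus full medium in the wild type, and the lowest row shows MpPTB2, MpPTB3 and MpPTB8 at -1.79, -1.89 and -0.74 in Mpwrky10 minus wild type.

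The other 4 PTB genes were not used in the choice. MpPTB4 (Mp4g16560), MpPTB6 (Mp4g16570), MpPTB1 (Mp4g16600) and MpPTB5 (Mp4g16610) stand at consecutive locus numbers around MpPTB2 and MpPTB3, in a row of 6. MpPTB4, MpPTB1 and MpPTB5 passed the low-count filter only through the libraries labelled no nitrate, where they were high in both genotypes, so their differences from the other media are given with no test. MpPTB6 held 5 counts in 1 wild-type library labelled no nitrate and 0 in the other 17, and was not tested.

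MpPTB4 held 0, 3 and 1 counts in full-medium wild-type libraries, 0 in those labelled no phosphate, and 1107, 762 and 904 counts in those labelled no nitrate. Its ratio of the label no nitrate to full medium was 771 (95% exact counting interval 301 to 2830). In the line labelled Mpwrky10 the libraries labelled no nitrate held 110, 109 and 336 counts. No Mpwrky10 library reached the lowest wild-type one, and the genotype difference was -2.33 on the log2 scale (SE 0.402, adjusted p = 0.00355, edgeR).

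MpPTB5 and MpPTB1 were at 0 counts in full-medium wild-type libraries and in libraries labelled no phosphate of both genotypes. Wild-type libraries labelled no nitrate held 185, 319 and 331 counts of MpPTB5 and 95, 225 and 220 counts of MpPTB1. Against the floor of 3 counts over the full-medium group the summed counts were at least 310-fold and at least 200-fold higher. Libraries labelled Mpwrky10 and no nitrate held 45, 73 and 100 counts of MpPTB5 and 25, 58 and 74 counts of MpPTB1, all below the lowest wild-type library of the same gene.

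The genotype difference under the label no nitrate was -1.99 (SE 0.365, adjusted p = 0.00366, edgeR) for MpPTB5. For MpPTB1 it was -1.84 (SE 0.499, adjusted p = 0.0402, edgeR). The latter call ended in 5 of the 6 fits that left out 1 library of these groups, with adjusted p up to 0.145. Mpwrky10 replicate 3 labelled no nitrate was the highest of its group in 6 of the 7 PTB genes tested, and wild-type replicate 1 labelled no nitrate was the lowest of its group in 5 of 7 and the highest in the other 2.

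A genotype-by-medium term asks whether the step from full medium differs between the genotypes. For the label no nitrate this term was -2.08 (SE 1.22) for MpPTB3, -1.0 (SE 0.34) for MpPTB8 and -0.39 (SE 0.326) for MpPTB7, given as a description. None of these genes was called for the term, while a lower term was called for 1.19% of all genes. For the label no phosphate the term was -0.26 (SE 1.33), -0.37 (SE 0.367) and -0.09 (SE 0.319) in the same order, and again none was called. MpPTB2 has no such value, as both genotypes were at 0 counts in full medium.

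The tandem row and the stretches around MpPTB8 and MpPTB7 allow neighbours to be compared. Next to MpPTB8, Mp4g19710, which has no symbol in the name table, had 2.42, 3.06 and 4.37 CPM in full-medium wild-type libraries, 0.428, 0.328 and 0.469 CPM labelled no phosphate, and 83.2, 105 and 113 CPM labelled no nitrate. All 3 groups were apart. It rose by 4.94 on the log2 scale under the label no nitrate (SE 0.339, adjusted p = 2.54e-07, edgeR) and fell by 2.97 under the label no phosphate (SE 0.575, adjusted p = 0.000717, edgeR).

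Libraries labelled Mpwrky10 had Mp4g19710 at 4.83, 3.87 and 2.30 CPM in full medium, 0.516, 0.648 and 0.691 CPM labelled no phosphate, and 28.6, 16.3 and 42.1 CPM labelled no nitrate. Its genotype difference under the label no nitrate was -1.79 (SE 0.274, adjusted p = 0.000591, edgeR), and its genotype-by-medium term was -1.93 (SE 0.478, adjusted p = 0.0548, edgeR). Over the 18 libraries its log2 level had a correlation with MpPTB8 of 0.966, at rank 14 of 11898 genes, a description over libraries that fall into 6 groups. Whether reads of the pair could overlap was not tested.

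The other neighbours of MpPTB8 differed less between groups. Mp4g19690 had 0 counts in all libraries. Mp4g19680 lay between 36.4 and 39.9 CPM in its 6 group means and was not called between the media or genotypes. Mp4g19720 rose by 0.22 under the label no nitrate in the wild type (SE 0.0694, adjusted p = 0.0183, edgeR) and by 0.28 under the label no phosphate (SE 0.069, adjusted p = 0.00253, edgeR). The first of these calls ended without full-medium replicate 2 (log2 difference 0.16) or replicate 2 labelled no nitrate (0.15).

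Beside MpPTB7, MpGH16.41 of the glycoside hydrolase family 16 rose in the wild type labelled no phosphate, from 34.6 ± 3.42 to 50.1 ± 2.78 CPM (mean ± SD, n = 3; log2 difference 0.54, SE 0.103, adjusted p = 0.000278, edgeR). In libraries labelled no nitrate it had 35.3 ± 1.95 CPM. Its correlation with MpPTB7 over the 18 libraries was 0.657. On the other side, Mp8g10400 had group means of 18.6 to 21.3 CPM and a correlation with MpPTB7 of -0.324. Mp8g10390 had group means of 0.198 to 0.783 CPM, and Mp8g10360 had 0 counts in all libraries.

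**Figure D3:**
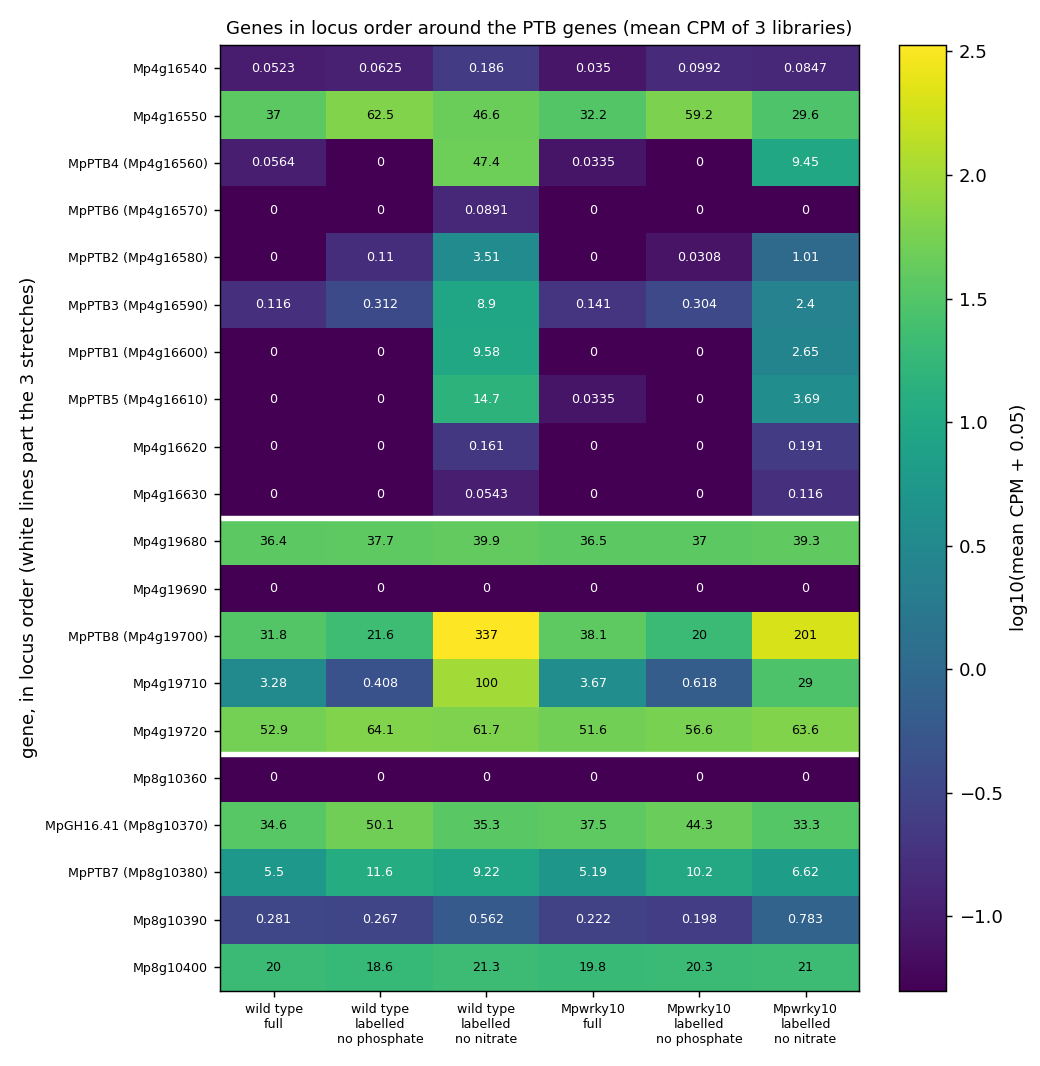
Mean CPM over 3 libraries (numbers in the cells; colour is log10 of mean CPM + 0.05) of genes in locus order, one row per gene and one column per group, with media named as labelled. White lines part the tandem row, the stretch around MpPTB8 and the stretch around MpPTB7. In the tandem row the high cells lie in the columns labelled no nitrate, from 3.51 CPM for MpPTB2 to 47.4 CPM for MpPTB4 in the wild type apart from MpPTB6 at 0.0891 CPM, and Mp4g19710 beside MpPTB8 stands at 100 CPM in the same column.

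Likeness was measured as Pearson's correlation of log2 CPM over the 18 libraries with genes of at least 1 CPM on average. As a description, MpPTB2 and MpPTB3 had a correlation of 0.910 with each other, and MpPTB8 had 0.899 with MpPTB2, 0.868 with MpPTB3 and 0.980 with MpPTB4. MpPTB7 had -0.07 to 0.25 with the other 6 PTB genes tested. These values follow the differences between the 6 groups, which the libraries share.

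The gene most like MpPTB2 was Mp1g07730, at 0.971, followed by Mp1g23830, Mp2g11200, Mp4g22500 and Mp8g09310, the last at 0.953. Mp1g07730 was also the most like MpPTB3, at 0.944, before Mp8g04270, Mp1g02950, MpAPT and Mp2g11200. For MpPTB8 these were Mp8g12880 at 0.986, MpPTB4, Mp2g25970, MpPTB5 and Mp2g11980 at 0.971. For MpPTB7 they were Mp7g15380 at 0.961, Mp8g02920, MpGT47.12, Mp6g04740 and MpNBS-LRR15 at 0.925, none of which was among the first 5 of another member. By Spearman's correlation 1, 0, 1 and 3 of the 5 remained for MpPTB2, MpPTB3, MpPTB8 and MpPTB7, so the order of the nearest genes depends on the measure.

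Mp1g07730 shows the pattern of the MpPTB2 and MpPTB3 libraries at a greater depth. It stood at 3.38, 3.57 and 2.98 CPM in full-medium wild-type libraries, 6.18, 7.21 and 4.41 CPM labelled no phosphate, and 135, 188 and 172 CPM labelled no nitrate. Libraries labelled Mpwrky10 had it at 2.73, 3.12 and 2.86 CPM, 6.91, 5.00 and 3.95 CPM, and 50.9, 47.9 and 67.7 CPM. The wild-type groups did not overlap with one another, and neither did the genotypes under the label no nitrate. The gene was chosen for its likeness over these same libraries, so these separations are a description only. Of all genes, 31.6% had the wild type labelled no phosphate above full medium. The label no nitrate lay above full medium for 26.7% and above no phosphate for 24.7%, and 18% had Mpwrky10 below the wild type under that label.

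Other genes of phosphate supply were compared by lists of symbols. MpVPT, whose name marks a vacuolar phosphate transporter, rose under both labels. Its level was 56.5, 57.9 and 63.4 CPM in full-medium wild-type libraries, 85.6, 77.6 and 80.3 CPM labelled no phosphate, and 124, 158 and 148 CPM labelled no nitrate, without overlap. The log2 difference was 0.46 for the label no phosphate (SE 0.117, adjusted p = 0.00406, edgeR) and 1.28 for the label no nitrate (SE 0.118, adjusted p = 8.53e-07, edgeR).

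MpSPX, of the family whose SPX domain senses inositol pyrophosphates and so phosphate status, had 72.7, 75.4 and 80.7 CPM in full-medium wild-type libraries and 127, 150 and 126 CPM in those labelled no nitrate. It rose by 0.82 (SE 0.0772, adjusted p = 3.79e-07, edgeR), while its value for the label no phosphate was -0.09 (SE 0.0776, adjusted p = 0.375, edgeR). MpNLA, named after a ubiquitin ligase that in Arabidopsis removes phosphate transporters from the plasma membrane, went the other way. It rose by 1.89 under the label no phosphate (SE 0.263, adjusted p = 1.01e-05, edgeR) and fell by 0.88 under the label no nitrate (SE 0.31, adjusted p = 0.0346, edgeR). The second call ended in 5 of 6 fits that left out 1 library, with adjusted p up to 0.152.

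On the scavenging list 6 genes were tested: MpGDPD, MpGDPDL, MpLPR2, MpLPR4, MpLPR7 and MpLPR11, so its counts are mostly about MpLPR genes. Of the 6, 1 rose and 3 fell in the wild type under each label. Of all genes, 26.3% and 22.9% were called higher and lower for no phosphate, and 20.6% and 13.9% for no nitrate. MpGDPD, a glycerophosphodiester phosphodiesterase that releases glycerol phosphate from degraded phospholipids, rose under the label no nitrate from 112 ± 18.7 to 493 ± 13.3 CPM (mean ± SD, n = 3; log2 difference 2.14, SE 0.217, adjusted p = 8.75e-06, edgeR). MpLPR7, of the multicopper oxidases that in Arabidopsis act in the root's response to low phosphate, fell by 1.87 under the same label (SE 0.158, adjusted p = 4.58e-07, edgeR). The median log2 difference of the 6 was -0.31 under the label no nitrate, beside 0.00 over all genes tested.

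Of 9 genes of lipid remodelling, 7 rose under the label no nitrate and 5 rose and 2 fell under the label no phosphate. Of all genes, 20.6% were called higher under the label no nitrate, and 26.3% higher and 22.9% lower under the label no phosphate. The list's median log2 differences were 0.44 and 0.47, beside 0.00 over all genes in each comparison. MpSQD, of sulfolipid synthesis, had 72.5, 72.5 and 76.2 CPM in full-medium wild-type libraries, 57.0, 61.4 and 64.1 CPM labelled no phosphate, and 110, 155 and 146 CPM labelled no nitrate. It rose by 0.89 under the label no nitrate (SE 0.0955, adjusted p = 2.03e-06, edgeR) and fell by 0.28 under the label no phosphate (SE 0.0964, adjusted p = 0.0236, edgeR). That is the order of groups seen for MpPTB8, but the fall ended as a call without full-medium replicate 3 or without replicate 1 or 2 labelled no phosphate, with adjusted p up to 0.0972. MpPLD7, a phospholipase D gene, rose by 3.47 and 3.06 (adjusted p = 0.000298 and 4e-04, edgeR).

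Of 17 ammonium transporter genes in the name table, 8 passed the filter on low counts. In the wild type 8 rose under the label no phosphate and 6 under the label no nitrate, beside 26.3% and 20.6% of all genes. A gene near 0 in full medium passes that filter only through media where it is high, so these counts are a description. The median log2 differences of the 8 were 3.84 and 1.81, with 0.00 over all genes in each comparison. MpAMT2.4 had 0.252, 0.353 and 0.308 CPM in full medium, 45.3, 42.4 and 33.6 CPM labelled no phosphate, and 5.55, 21.2 and 21.1 CPM labelled no nitrate. All 3 groups were apart. The list for nitrate transport and assimilation held 21 tested genes, all with MpNPF symbols and none of assimilation. Among the 21, 10 rose and 2 fell under the label no phosphate, and 6 rose and 1 fell under the label no nitrate. Under the label no phosphate 26.3% of all genes rose and 22.9% fell, and under the label no nitrate 20.6% rose and 13.9% fell, shares that apply to the next list as well. The list for sodium and proton pumps, which set the gradients that phosphate symporters use, held 15 tested genes. All were proton pump genes with MpHA symbols, and no sodium pump gene was tested. Of the 15, 10 rose and 2 fell under the label no phosphate and 8 rose and 1 fell under the label no nitrate. MpHA16, a plasma membrane proton pump gene, had 3.43, 3.26 and 1.34 CPM in full-medium wild-type libraries and 10.1, 17.9 and 13.7 CPM in those labelled no nitrate (log2 difference 2.36, SE 0.284, adjusted p = 7.89e-06, edgeR).

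**Figure D4:**
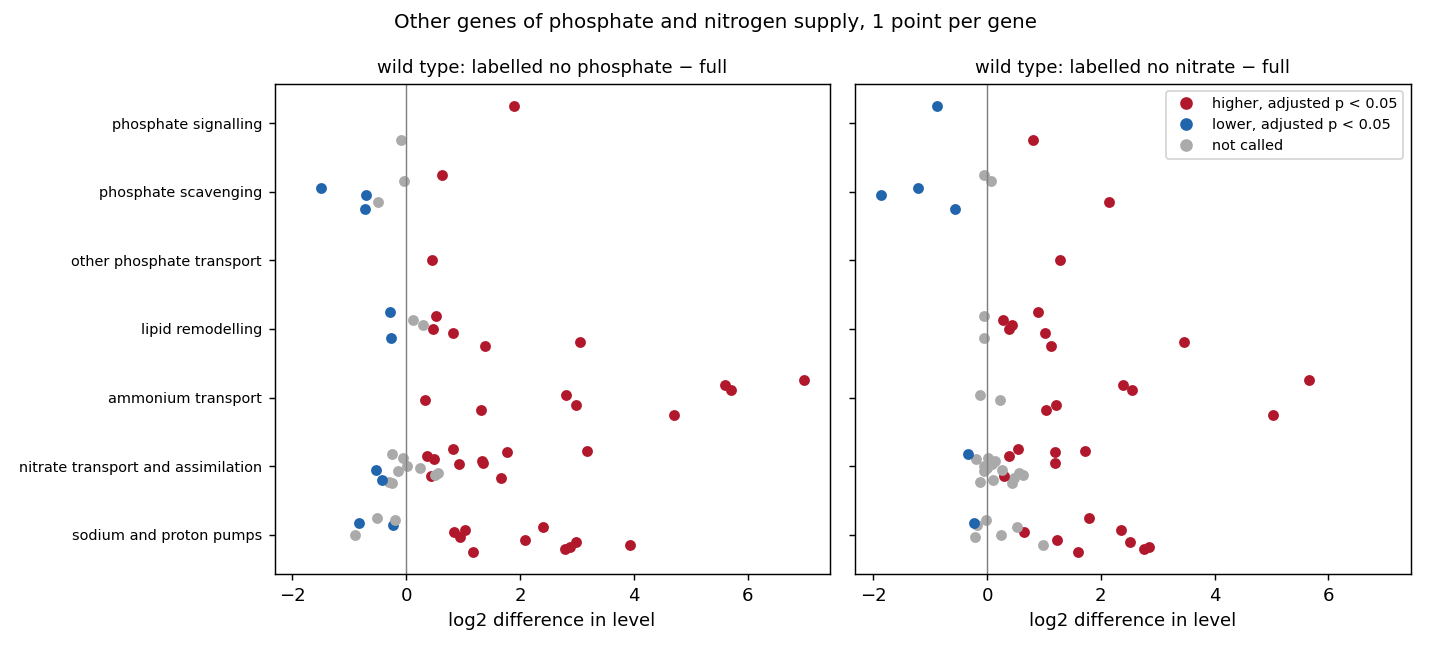
Log2 difference from full medium in the wild type (horizontal axis) for genes of 7 lists, one point per gene, with the label no phosphate on the left and no nitrate on the right. Points for sodium and proton pumps are MpHA genes only, and those for nitrate transport and assimilation MpNPF genes only. Points for phosphate scavenging are MpLPR genes, MpGDPD and MpGDPDL. Red and blue points were called higher and lower at an adjusted p under 0.05 in edgeR's test, grey points were not called, and vertical offsets within a list only part the points. Ammonium transporter points reach 7.00 on the left for MpAMT2.4, which is at 5.66 on the right.

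Of the phosphate-related genes named above, MpSPX, MpGDPD, MpSQD and MpVPT also rose under the label no nitrate in the line labelled Mpwrky10. MpSPX rose by 0.26 (SE 0.0769, adjusted p = 0.0123, edgeR), MpGDPD by 0.86 (SE 0.21, adjusted p = 0.00553, edgeR) and MpSQD by 0.44 (SE 0.0958, adjusted p = 0.00153, edgeR). The MpSPX call ended without Mpwrky10 replicate 2 labelled no nitrate (log2 difference 0.20, adjusted p = 0.0771, edgeR), and the MpGDPD call with only the groups compared (adjusted p = 0.0706, edgeR). MpVPT rose by 0.99 (SE 0.118, adjusted p = 8.09e-06, edgeR). Set directly against the wild type under the label no nitrate, MpSPX was lower by -0.36 (adjusted p = 0.00278), MpSQD by -0.50 (adjusted p = 0.00127) and MpGDPD by -0.83 (adjusted p = 0.0132, edgeR), and the last call ended without Mpwrky10 replicate 2 at an adjusted p of 0.0655. The MpVPT difference of -0.34 (adjusted p = 0.0485, edgeR) ended as a call in 5 of 6 fits without 1 library, up to an adjusted p of 0.194. MpNLA went the other way. In the line labelled Mpwrky10 it was called lower under the label no nitrate than in full medium (log2 difference -0.72). Under that label it was called higher in Mpwrky10 than in the wild type (0.97). Each call ended in 4 of 6 fits without 1 library, with adjusted p up to 0.192 and 0.176 (edgeR).

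Markers of other cells moved between media, and their part in the PTB levels was not tested. MpRBCS, the 1 gene found of the list for photosynthetic tissue, was at 361 to 437 CPM in full-medium wild-type libraries, 120 to 127 CPM labelled no phosphate and 288 to 327 CPM labelled no nitrate. The 3 oil-body genes summed to 41.2 to 56.8 CPM in all libraries and the 2 gemma-cup genes to 25.7 to 39.2 CPM. Single genes moved within these sums. In the wild type 1 oil-body gene was called higher under the label no phosphate (26.3% of all genes) and 1 lower under no nitrate (13.9%). Under the label no phosphate 2 oil-body genes were called lower in Mpwrky10 than in the wild type. With that label 1 gemma-cup gene was called higher than in full medium in each genotype (26.3% and 20.3%). MpPRM, the defining sperm gene, held 0 to 3 counts in a library. None of the rhizoid symbols was found in the name table.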

How the data were processed

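Poly(A)-selected directional libraries of whole Marchantia plants were sequenced, as stated in the labels' protocols. STAR 2.7 and DESeq2 appear, without their roles, in the submitters' processing notes. The genome build, the counting program, whether strand was used and what was done with multiply matching reads are not given in the sources used here, so reads of near copies and of overlapping or antisense genes cannot be traced. The authors deposited raw counts, whole numbers for each gene and library that sum to different totals. All 18 Marchantia columns were used, and the lettuce table of the series was not used here.

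Libraries were grouped by the labels. Nothing in the labels says that replicates came from separate cultures, and p-values reflect the spread among these libraries alone, which may be technical. One edgeR model (edgeR 4.0.16 in R 4.3.3) was fitted to all 18 libraries, with filterByExpr (13016 of 19355 genes kept), TMM factors of 0.972 to 1.06, robust quasi-likelihood F-tests, two-sided, and Benjamini-Hochberg adjustment over all genes tested. The common biological coefficient of variation was 0.0962. Replicates differed by 3.55 to 21.2 in chi-square per degree of freedom, above sampling noise, so each was counted as 1 sample. CPM were computed with TMM-scaled totals. SEs follow from the log2 difference and the F statistic. The floor for a group at 0 is 3 counts over its 3 libraries, and counting intervals are exact at 95% and cover counting error only. The fit was tested on simulated data with known answers.

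The 4 genes and the gene lists were chosen with earlier results of these data known. The text names the 4 genes, the other PTB genes, up to 3 genes of a list with the smallest p for the wild type labelled no nitrate against full medium, the 5 genes most like each of the 4 by Pearson's correlation of log2 CPM (prior count 1), and the 2 loci on each side. MpWRKY10, the gene the line is named after, is outside this rule. Names came from a RefSeq table for assembly MpTak2_v7.1, matched by locus number on the assumption that both number genes alike. Of 18391 entries 17384 were matched, and 2441 tested genes had a symbol. Alternatives were RLE factors, library totals, other filters, DESeq2 1.42.0, fits of only the groups compared, the replicate number as a block and leaving out each library.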

Additional observations from a re-analysis of the deposited data

Results flagged for a closer look

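For 2 genes that were high in the same libraries as MpPTB8, the step from full medium to the label no nitrate differed between the genotypes by a test of the difference itself, the genotype-by-medium term of the edgeR model. For MpSPX the term was -0.558 (SE 0.109, adjusted p = 0.0113), with means of 76.3 and 134 CPM in the wild type and 87.4 and 105 CPM in the line labelled Mpwrky10. It was past the threshold in each of the 12 fits that left out 1 library of the groups compared. For MpGDPD the term was -1.28 (SE 0.296, adjusted p = 0.0424), with means of 112 and 493 CPM in the wild type and 152 and 277 CPM in the line labelled Mpwrky10. The MpGDPD call ended in 10 of the 12 fits without 1 library, at adjusted p up to 0.114, with no filter on low counts (0.0603) and with only the groups compared (0.0941).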

How the results depend on the processing

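Over all genes, counts of calls moved by over 1.5 times in these cases. With only the groups compared, 2262 genes were called between the labels no nitrate and no phosphate in the line labelled Mpwrky10 (3481 in the fit of all 18 libraries), 280 between genotypes in full medium (552) and 159 for the genotype-by-nitrate term (277). DESeq2 called 563 for that term and 154 for the genotype-by-phosphate term (40). The replicate block gave 416 and 70. Whether equal replicate numbers mark paired samples was not settled, and the main fit did not pair them. Deviations of same-numbered libraries had correlations of -0.264 to 0.261 (median 0.0184, 45 pairs). Those of differently numbered libraries had -0.292 to 0.263 (median -0.00606, 90 pairs). Of 18 libraries, 12 correlated best with their own number. The lower call of MpPTB7 in Mpwrky10 libraries labelled no nitrate against no phosphate ended under the block, with no filter on low counts and with only the groups compared. DESeq2 also called MpPTB2 higher in the wild type labelled no phosphate than in full medium. Leaving out 1 library gave 132 to 331 calls for the genotype-by-nitrate term, 15 to 93 for the genotype-by-phosphate term (40), 265 to 539 between genotypes in full medium, 352 to 861 labelled no phosphate (860) and 1635 to 2236 labelled no nitrate (2526). Among the 4 genes, log2 differences of those with few counts moved with single libraries. MpPTB2 ranged from 4.22 to 7.4 for no nitrate minus no phosphate in the line labelled Mpwrky10, from 4.36 to 6.17 in the wild type, and from -4.19 to -0.343 between genotypes labelled no phosphate. MpPTB3 ranged from 2.42 to 4.96 for no nitrate minus no phosphate and from -0.925 to 1.61 for no phosphate minus full medium in the line labelled Mpwrky10, from -2.03 to 0.512 between genotypes labelled no phosphate, and from -2.22 to 0.318 for the genotype-by-phosphate term. The genotype call of MpPTB8 labelled no nitrate ended with no filter and with only the groups compared, and the Mpwrky10 calls of MpPTB2 labelled no nitrate ended with only the groups compared. Counts of 0 to 15 per library limit what can be said of MpPTB2 and MpPTB3 outside the label no nitrate.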
